A study of Mus musculus with 16 samples.

Results

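Interferon-induced genes are 43 genes (58 array probes) that cells switch on when they sense interferon, and they were followed here through 8 groups of VE-cadherin-positive cells sorted from E11.5 mouse embryos. The genes were taken from a list of names: every probe carrying a listed name in the scanner files was used, out of 55681 probes in all. Of the 43 genes, 42 were among the 24574 genes tested. Oas1g was not tested, because its 2 probes were well above background on 0 and 1 of 16 arrays. Tie-2-Etv2 animals carried an Etv2 transgene turned on by a Tie-2 Cre transgene, and the other animals were labelled control, with no further genotype given. All came from a mixed background of B6/CBA and other strains. Tie-2 is active in endothelial cells and in part of the blood lineage. The labels do not say which cells of a sort carried active Etv2, and every difference below is between sorted populations. For each genotype, yolk sac and embryo proper were kept apart, and cells with VE-cadherin and without CD45 (gate P3, CD45- cells) and cells with both (gate P4, CD45+ cells) were sorted and not cultured. Each of the 8 groups had 2 arrays with 1 sample each. The titles of both transgenic embryo CD45- samples say only Tie-2, whereas their genotype label says Tie-2-Etv2, and they were used as such. Whether the 2 samples of a group are different embryos or litters is not stated, and p-values therefore reflect just how far these samples differ, a spread that may be technical.

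Type I interferons signal through the receptor Ifnar1/Ifnar2 to Jak1 and Tyk2, which switch on a complex that holds Stat2 and Irf9. This complex binds interferon-stimulated response elements (ISREs) in promoters, while interferon gamma acts through Ifngr1/Ifngr2 at GAS elements. The proteins made in response degrade viral RNA, block viral replication and assembly, present antigen and feed back on the pathway, and macrophages and endothelial cells are among the cells that respond.

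The promoters are shown because the list is defined by a shared response. RefSeq promoter windows (GRCm38.p6, 250 bases before to 50 after the transcription start) were at hand for 33 of the 43 genes. The ISRE core (TTTC, any 2 bases, TTTC), searched on both strands, stood in 17 of these 33 genes (51.5%), against 3.99% of 27025 genes with such a window. The GAS core TTCNNNGAA, a palindrome, stood in 7 of the 33 (21.2%), against 9.55% of genes. These are letter matches and no evidence of binding. The stretches below run 5′ to 3′ on the strand of the gene and end at or before the transcription start, and capitals mark ISRE core matches on either strand. They were chosen to show 3 arrangements: overlapping matches (Isg15, Oas1a, Bst2), separate matches (Ifit3, Ifit1) and a single match (Stat2, Gbp2, Igtp, Cxcl10). One GAS match overlaps the capitals of Bst2.
Isg15 (chr4:156200860-156200911, minus strand): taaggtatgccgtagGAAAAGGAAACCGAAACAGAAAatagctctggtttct
Oas1a (chr5:120907526-120907560, minus strand): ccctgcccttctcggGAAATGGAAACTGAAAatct
Bst2 (chr8:71537572-71537617, minus strand): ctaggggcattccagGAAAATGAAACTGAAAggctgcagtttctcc
Ifit3 (chr19:34583358-34583431, plus strand): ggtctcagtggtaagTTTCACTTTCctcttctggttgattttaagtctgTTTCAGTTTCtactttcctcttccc
Ifit1 (chr19:34640770-34640828, plus strand): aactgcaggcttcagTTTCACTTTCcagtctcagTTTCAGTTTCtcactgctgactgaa
Stat2 (chr10:128270261-128270300, plus strand): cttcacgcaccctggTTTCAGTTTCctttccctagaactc
Gbp2 (chr3:142620589-142620628, plus strand): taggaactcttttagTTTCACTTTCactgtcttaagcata
Igtp (chr11:58199507-58199546, plus strand): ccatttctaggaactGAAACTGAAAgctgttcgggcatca
Cxcl10 (chr5:92349078-92349117, minus strand): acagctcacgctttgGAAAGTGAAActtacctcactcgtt
Counted from the transcription start, the matches of Isg15 span positions -78 to -57, those of Oas1a -20 to -5 and those of Bst2 -130 to -115.

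Levels are log2 intensities relative to the 75th percentile of the array, "at background" means not well above background by the scanner's own flag, differences are log2 with the standard error (SE) of the fit, and a gene is called where its limma adjusted p (Benjamini-Hochberg, two-sided) was under 0.05. Between 50.6% and 59.9% of the probes of an array cleared background well and 0 spots were saturated, and arrays of a group correlated at 0.975 to 0.992. The number of arrays limits the precision. Ptprc, which encodes CD45, stayed at background on all control CD45- arrays and lay between 2.88 and 3.55 in control CD45+ cells. Cdh5, which encodes VE-cadherin, lay between 5.51 and 5.99 in control CD45- cells and between -0.67 and 0.33 in control CD45+ cells. All 11 tested macrophage markers were well above background on every control CD45+ array. Etv2 rose in both yolk sac gates, by 6.36 ± 0.96 (adjusted p = 0.00051) in CD45- and by 6.08 ± 0.96 (adjusted p = 0.000837) in CD45+ cells. Its embryo differences were 2.49 ± 0.96 (adjusted p = 0.574) in CD45- cells and 3.09 ± 0.96 (adjusted p = 0.124) in CD45+ cells and did not pass. Etv2 lay above both controls on both Tie-2-Etv2 arrays in all 4 populations. In the embryo 15.5% of all genes did so in CD45- and 19.6% in CD45+ cells. Embryo and yolk sac samples were run on separate slides, with gate along the columns and genotype along the rows, so tissue, gate and genotype cannot be told apart from slide and position.

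The 2 control CD45+ arrays numbered 1, one per tissue, stood apart in these genes. In the embryo the median level of the 42 genes was 3.41 on array 1 and 1.64 on array 2, and in the yolk sac it was 3.54 and 2.08. Array 1 was higher for 37 of 42 genes in the embryo, by a median of 1.48, and for 42 of 42 in the yolk sac, by a median of 1.26. In the other 6 groups the median gap lay between -0.25 and 0.57. The gap exceeded 1 for 23 and 24 of the 42 genes, against 6.98% and 7.36% of all genes. Counts and medians that rest on these arrays are therefore also given without both of them, a choice made after the data were seen.

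**Figure D1:**
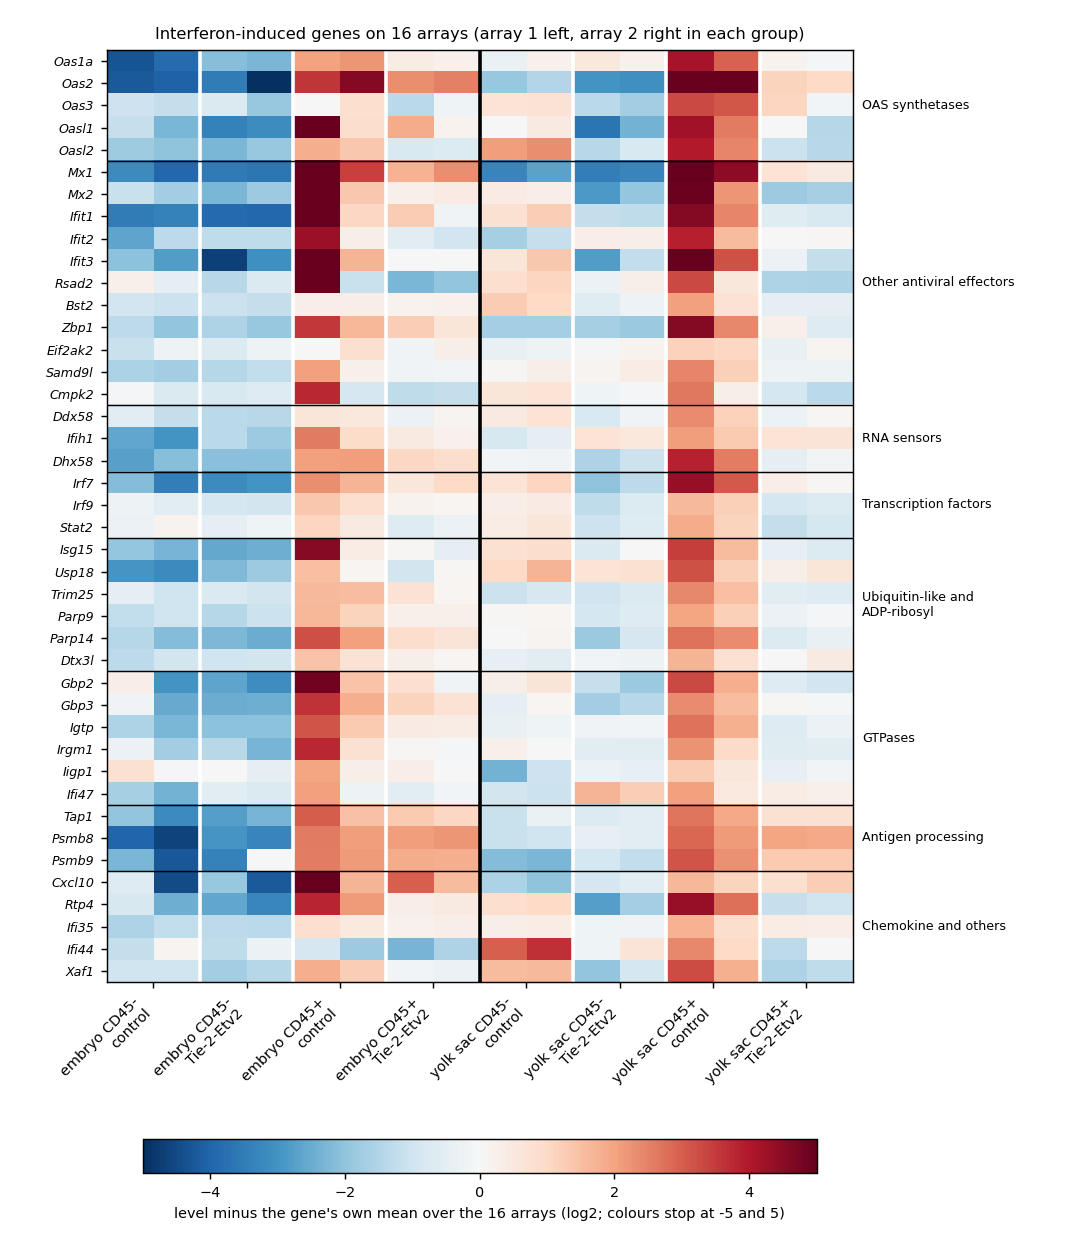
Each row is 1 of the 42 tested interferon-induced genes, ordered by role, and each column is 1 array, with array 1 to the left of array 2 in each of the 8 groups. Colour shows the level minus the gene's own mean over the 16 arrays, in log2 units, and colours stop at -5 and 5. The control CD45+ columns of both tissues are the darkest red, with array 1 (median level 3.41 and 3.54) above array 2 (1.64 and 2.08).

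The first question is whether forced Etv2 goes with a change of these genes. In yolk sac CD45+ cells 28 of 42 genes fell and 0 rose with Tie-2-Etv2, where 14.5% of all genes tested fell and 18.1% rose. The median difference was -2.55, against 0.04 over all genes, and all 42 differences were negative, from -5.34 (Mx1) to -0.39 (Cxcl10). Without the 2 control arrays numbered 1, 27 genes fell, 22 of them among the 28, and the median was -2.02. In 41 of 42 genes both Tie-2-Etv2 arrays lay below both controls, against 30.6% of all genes. The call held under every alternative setting that tested the gene for 17 of the 28: Dhx58, Ifit3, Igtp, Irf7, Irf9, Mx1, Mx2, Oas1a, Oas2, Oas3, Oasl2, Parp14, Parp9, Rtp4, Stat2, Trim25 and Xaf1. Ifit3, Mx1, Oas2 and Oas3 were tested in 16 alternatives and the others in 17. The strict filter, which asked for every array well above background, left these 4 out. Beside this, 10 of 11 tested macrophage markers fell in the same comparison, with a median difference of -3.79. The median of these markers was 6.71 and 6.20 on the control arrays and 3.14 and 3.22 on the Tie-2-Etv2 arrays, and their summed level went from between 10.44 and 10.81 to between 7.21 and 7.48 log2 units. All 11 stayed well above background on both arrays of each of these groups. Endothelial markers rose in 9 of 11 cases and granulocyte markers in 4 of 6. The part of these markers in the result was not tested, and in bulk samples fewer cells of a type and less RNA per cell cannot be told apart.

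In yolk sac CD45- cells 13 of 42 genes fell and 1 rose, where 15.8% of all genes fell and 26.1% rose. The median difference was -0.89, against 0.18 over all genes, and 28 of 42 differences were negative. All 13 genes that fell also fell in yolk sac CD45+ cells: Bst2, Ddx58, Dhx58, Ifi44, Irf7, Irf9, Oas3, Oasl2, Parp14, Parp9, Rtp4, Stat2 and Xaf1. The count was lowest without Tie-2-Etv2 array 1, at 8 genes, all of them lower. Both Tie-2-Etv2 arrays lay below both controls in 26 genes (29.9% of all genes) and above both in 11 (45.6% of all genes). In these cells all 8 leukocyte and 5 of 6 platelet markers rose, the leukocyte markers with array medians of -1.78 and -2.01 in control and 4.63 and 4.01 in Tie-2-Etv2 cells and summed levels from between 1.76 and 1.92 to between 7.71 and 8.24 log2 units. Ptprc rose at least 3.23-fold, and 7 of 11 endothelial and 3 of 7 mural markers fell. Of the 11 tested macrophage markers 4 were well above background on both control arrays and 7 on both Tie-2-Etv2 arrays. Their array medians were -6.08 and -4.04 in control and -4.2 and -3.5 in Tie-2-Etv2 cells. Their summed levels went from between 5.02 and 5.25 to between 4.04 and 4.64 log2 units. C1qa, C1qc and Timd4 stayed at background on all arrays of both groups. The part of these markers in the result was not tested.

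Embryo cells gave fewer calls. In embryo CD45+ cells 3 of 42 genes fell (Oas1a, Oasl2 and Parp14) and 0 rose, where 0.737% of all genes fell and 2.3% rose. All 42 differences were negative, from -4.06 to -0.14, with a median of -1.35 against -0.03 over all genes. The count was 0 without control array 1 or without either Tie-2-Etv2 array and 20 without control array 2, and without both control arrays numbered 1 it was 2, with a median of -0.76. At an unadjusted p under 0.05 the 42 genes gave 29 lower and 0 higher, where 8.24% of all genes were lower and 7.95% higher. Without control array 1 it was 13 lower and 0 higher, where 6.33% of all genes were lower and 7.32% higher. Macrophage markers gave 1 higher and 1 lower of 11 here, with array medians of 6.99 and 6.55 in control and 6.10 and 5.77 in Tie-2-Etv2 cells, and 6 of 11 endothelial markers rose. Of the granulocyte markers 1 of 6 rose, with array medians of 2.05 and 3.37 in control and 6.22 and 6.26 in Tie-2-Etv2 cells and summed levels from between 6.44 and 7.74 to between 10.45 and 10.82. Of the platelet markers 3 of 6 rose, with array medians of -0.82 and -0.63 against 2.21 and 2.44. In embryo CD45- cells 1 of 42 genes rose (Oas1a) and 0 fell, where 1.25% of all genes rose and 0.0326% fell. The median difference there was -0.23, against -0.03 over all genes, and 6 of 8 leukocyte markers rose. The part of the markers in these embryo results was not tested.

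**Figure D2:**
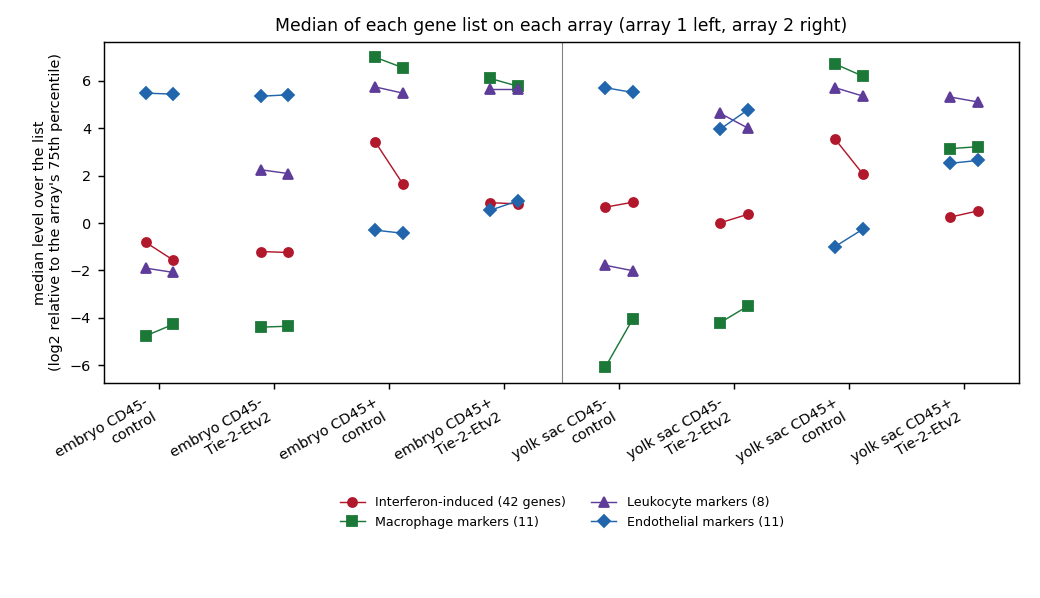
Each symbol is the median level of a gene list on 1 array, in log2 relative to the array's 75th percentile, and a line joins the 2 arrays of a group. Red circles are the 42 interferon-induced genes, green squares 11 macrophage, violet triangles 8 leukocyte and blue diamonds 11 endothelial markers. In yolk sac CD45+ cells the interferon-induced median falls from 3.54 and 2.08 to 0.25 and 0.51 and the macrophage median from 6.71 and 6.20 to 3.14 and 3.22.

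**Figure D3:**
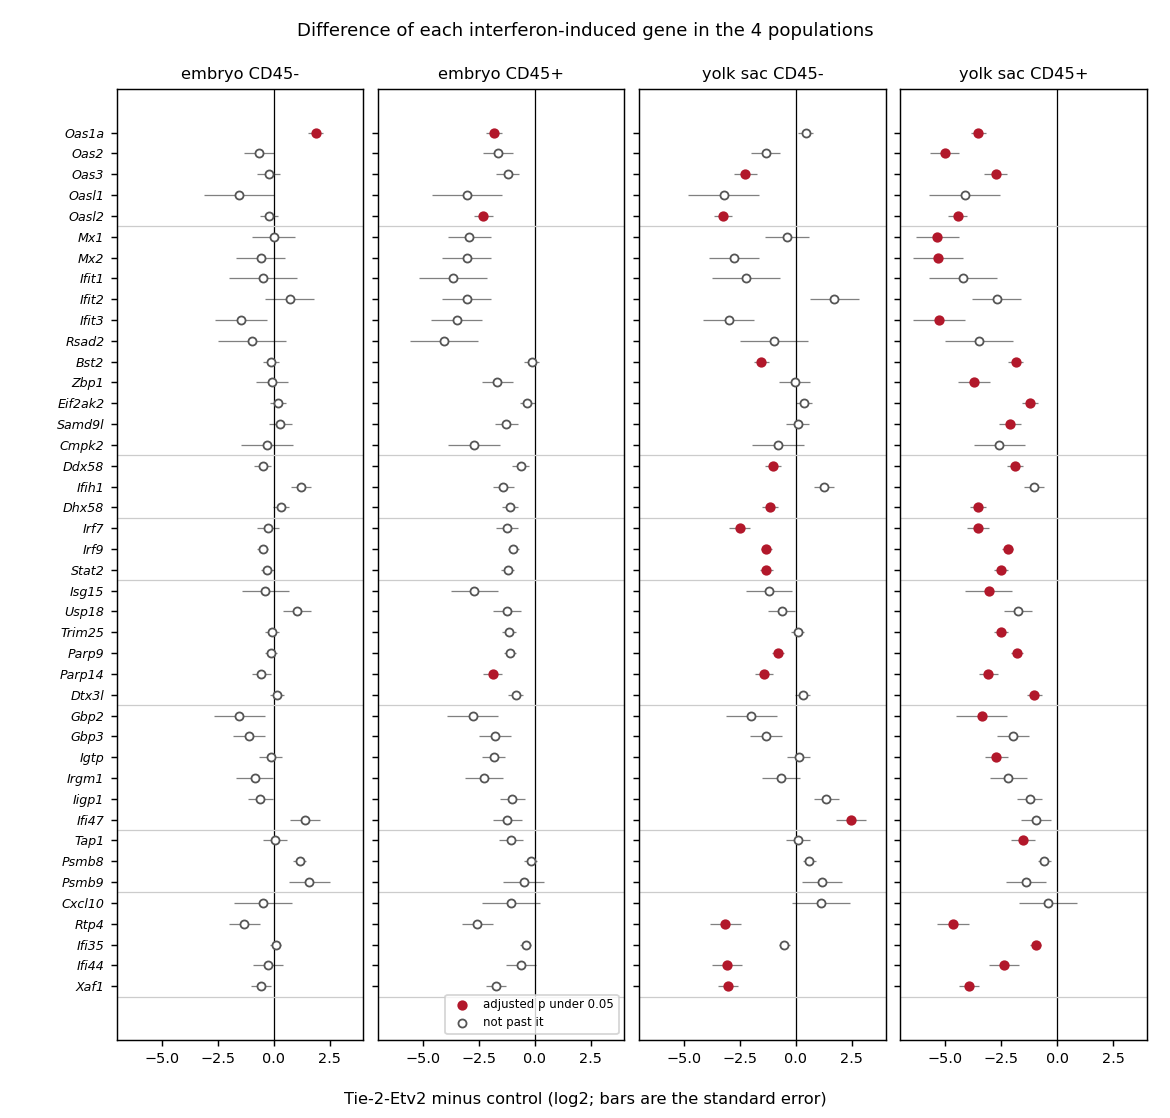
Tie-2-Etv2 minus control difference (log2, horizontal axis, bars are the SE) for each of the 42 genes in the 4 populations. Filled red points passed the test: 1 and 3 in CD45- and CD45+ cells of the embryo, 14 and 28 in those of the yolk sac, where all CD45+ points lie left of 0.

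The values by role follow. Within each population they are given as control arrays 1 and 2 against Tie-2-Etv2 arrays 1 and 2. The oligoadenylate synthetases Oas1a, Oas2 and Oas3 make a messenger that activates RNase L, which cleaves RNA, and Oasl1 and Oasl2 are relatives of them. In yolk sac CD45+ cells 4 of the 5 tested synthetase genes fell, where 14.5% of all genes did, with a median difference of -4.13. Oas1a, which makes the short form, was at -2.09 and -1.64 against 0.09 and -0.05 in CD45- and 4.24 and 4.42 against 2.58 and 2.43 in CD45+ cells of the embryo. On the yolk sac arrays it was at 1.87 and 2.43 against 2.76 and 2.43 in CD45- cells and 6.32 and 5.18 against 2.38 and 2.11 in CD45+ cells. Oas1a thus rose in embryo CD45- cells by 1.88 ± 0.34 (adjusted p = 0.0217) and fell in the CD45+ cells of both tissues, by 1.82 ± 0.34 (adjusted p = 0.0169) in the embryo and 3.51 ± 0.34 (adjusted p = 5.1e-05) in the yolk sac, with no overlap between the groups. Of all genes 15.5% lay above both controls in embryo CD45- cells. Below both controls lay 23.6% in embryo and 30.6% in yolk sac CD45+ cells. The embryo CD45- call was lost in 5 of 16 alternatives, among them the removal of control array 1 or of either Tie-2-Etv2 array (adjusted p up to 0.199), and the embryo CD45+ call in 5 of 17. Probes of different members matched each other in at most 30 of 60 bases, and a share of signal from Oas1 copies outside the list was not tested.

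Oas2, the middle form, lay at -5.29 and -5.16 against -4.61 and -7.17 in embryo CD45- cells, where 2 of 4 arrays were not well above background, and at 2.46 and 3.49 against 1.24 and 1.42 in embryo CD45+ cells. Oas2 in the yolk sac was at -3.00 and -2.57 against -4.10 and -4.17 in CD45- cells and 5.44 and 4.52 against 0.01 and -0.10 in CD45+ cells. The CD45+ groups of the yolk sac stand far apart, and Oas2 fell there by 5.02 ± 0.66 (adjusted p = 0.000295), or 32.5-fold. Oas3, the long form, was dim: in embryo CD45- cells none of its arrays cleared background well, and in embryo CD45+ cells, at -5.06 and -4.22 against -6.42 and -5.28, on only 1. Oas3 in the yolk sac was at -4.37 and -4.32 against -6.41 and -6.81 in CD45- cells, where it was above background on 1 control array, and -1.76 and -1.96 against -3.99 and -5.21 in CD45+ cells, where it was above background on all but Tie-2-Etv2 array 2. Oas3 fell at least 1.43-fold in yolk sac CD45- cells (adjusted p = 0.00528) and by 2.74 ± 0.51 (adjusted p = 0.00227) in CD45+ cells. It entered the test only through control yolk sac CD45+ cells, the only group with both arrays well above background. The filter thus favoured a higher level there in each comparison with that group. Oasl2 was at -1.23 and -1.48 against -1.74 and -1.37 in CD45- and 2.37 and 1.89 against -0.22 and -0.13 in CD45+ cells of the embryo. Oasl2 in the yolk sac was at 2.61 and 2.86 against -0.84 and -0.23 in CD45- cells and 4.49 and 2.99 against -0.55 and -0.86 in CD45+ cells. Only in embryo CD45- cells did the Oasl2 groups overlap, and elsewhere 23.6% to 30.6% of all genes lay below both controls. Oasl2 fell by 2.30 ± 0.41 (adjusted p = 0.0142) in embryo CD45+ cells and, in the yolk sac, by 3.27 ± 0.41 (adjusted p = 0.000176) in CD45- and 4.44 ± 0.41 (adjusted p = 4.14e-05) in CD45+ cells, and the last 2 calls held under every alternative, while the embryo call was lost in 4 of 17 (adjusted p up to 0.0932).

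The other antiviral effectors act at many steps of infection. In yolk sac CD45+ cells 7 of 11 fell, and in yolk sac CD45- cells 1, where 14.5% and 15.8% of all genes fell. Mx1, a GTPase that traps viral particles in the nucleus, stayed at background on all CD45- arrays and lay at 2.87 and -0.18 against -1.87 and -1.29 in embryo CD45+ cells. In yolk sac CD45+ cells Mx1 was at 3.76 and 0.85 against -2.92 and -3.16, where it fell by 5.34 ± 0.97 (adjusted p = 0.00197). Mx2, its cytoplasmic relative, was at -2.76 and -3.39 against -3.91 and -3.44 in CD45- and 3.75 and -0.28 against -1.38 and -1.24 in CD45+ cells of the embryo. Mx2 in the yolk sac was at -1.24 and -1.32 against -4.51 and -3.56 in CD45- cells and 3.27 and 0.58 against -3.46 and -3.29 in CD45+ cells. Mx2 fell by 5.30 ± 1.11 (adjusted p = 0.00432) in the latter. In yolk sac CD45- cells the difference of -2.76 ± 1.11 (adjusted p = 0.0697) did not pass. Both Tie-2-Etv2 arrays lay below both controls there, as they did in 29.9% of all genes. Ifit3, of the family that binds foreign RNA, was at -3.60 and -4.35 against -6.24 and -4.63 in CD45- and 3.73 and 0.16 against -1.54 and -1.55 in CD45+ cells of the embryo. Ifit3 in the yolk sac was at -0.95 and -0.19 against -4.35 and -2.80 in CD45- cells and 4.36 and 1.63 against -1.83 and -2.74 in CD45+ cells. Tie-2-Etv2 arrays were the lower ones in each population, as in 18.1% to 30.6% of all genes, depending on the population. Ifit3 fell by 5.28 ± 1.15 (adjusted p = 0.00547) in yolk sac CD45+ cells.

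Bst2 (tetherin), which holds budding virus at the cell surface, was at 3.41 and 3.27 against 3.28 and 3.17 in CD45- and 4.69 and 4.69 against 4.53 and 4.56 in CD45+ cells of the embryo, and its embryo differences were -0.12 ± 0.34 (adjusted p = 1) and -0.14 ± 0.34 (adjusted p = 0.927). Bst2 in the yolk sac was at 5.61 and 5.33 against 3.76 and 4.08 in CD45- cells and 6.42 and 5.07 against 3.86 and 3.92 in CD45+ cells. Bst2 fell in both, by 1.55 ± 0.34 (adjusted p = 0.00428) and by 1.85 ± 0.34 (adjusted p = 0.00195). Zbp1, a sensor of Z-form nucleic acid that can start cell death, was at -2.71 and -3.39 against -2.95 and -3.32 in CD45- and 2.11 and 0.25 against -0.17 and -0.81 in CD45+ cells of the embryo. Zbp1 in the yolk sac was at -3.12 and -3.13 against -3.09 and -3.27 in CD45- cells, with the genotypes side by side, and 3.17 and 0.99 against -1.16 and -2.08 in CD45+ cells, where it fell by 3.70 ± 0.71 (adjusted p = 0.00264). Eif2ak2 encodes PKR, the kinase that stops translation on double-stranded RNA. Eif2ak2 was at -0.48 and 0.38 against -0.08 and 0.35 in CD45- and 0.61 and 1.41 against 0.45 and 0.91 in CD45+ cells of the embryo. Eif2ak2 in the yolk sac was at 0.25 and 0.36 against 0.51 and 0.81 in CD45- cells and 1.77 and 1.64 against 0.26 and 0.74 in CD45+ cells, a fall of 1.21 ± 0.34 (adjusted p = 0.0209) in the latter. Samd9l, an antiviral and growth-restraining protein, was at -0.83 and -0.97 against -0.69 and -0.50 in CD45- and 2.80 and 0.99 against 0.59 and 0.63 in CD45+ cells of the embryo. Samd9l in the yolk sac was at 0.82 and 1.04 against 0.87 and 1.14 in CD45- cells and 3.19 and 1.96 against 0.48 and 0.48 in CD45+ cells. It fell by 2.10 ± 0.51 (adjusted p = 0.00932) in yolk sac CD45+ cells, a call lost without control array 1, where the adjusted p was 0.0782. The other 4 effectors, Ifit1, Ifit2, Rsad2 and Cmpk2, had differences of -4.21, -2.69, -3.49 and -2.57 in yolk sac CD45+ cells that did not pass, with SEs of 1.52, 1.09, 1.51 and 1.16. All 4 were called there once both control arrays numbered 1 were left out. Rsad2 and Cmpk2 were called in none of the 12 comparisons between 2 groups.

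Cytosolic RNA is sensed by Ddx58 (RIG-I) and Ifih1 (MDA5), with Dhx58 (LGP2) as their regulator. Ddx58 and Dhx58 fell in both yolk sac populations, while Ifih1 passed in neither. Ddx58 was at 1.16 and 0.52 against 0.35 and 0.32 in CD45- and 2.30 and 2.21 against 1.42 and 1.83 in CD45+ cells of the embryo. Ddx58 in the yolk sac was at 2.14 and 2.38 against 0.93 and 1.53 in CD45- cells and 4.05 and 2.85 against 1.41 and 1.75 in CD45+ cells, falls of 1.03 ± 0.37 (adjusted p = 0.0473) and 1.87 ± 0.37 (adjusted p = 0.00332). Dhx58 was at -3.93 and -3.37 against -3.31 and -3.33 in CD45- and 0.84 and 0.87 against -0.18 and -0.35 in CD45+ cells of the embryo. Dhx58 in the yolk sac was at -1.35 and -1.39 against -2.76 and -2.30 in CD45- cells and 2.63 and 1.32 against -1.68 and -1.38 in CD45+ cells. The fall of Dhx58 was 1.15 ± 0.36 (adjusted p = 0.026) in CD45- cells and 3.51 ± 0.36 (adjusted p = 6.91e-05) in CD45+ cells, or 11.4-fold, with no overlap in either. Both Tie-2-Etv2 arrays lay below both controls in 29.9% and 30.6% of all genes there. The CD45- calls of both genes were lost without either control array or without Tie-2-Etv2 array 1, where adjusted p reached 0.263 for Ddx58 and 0.159 for Dhx58. Ifih1 differed by 1.25 ± 0.46 (adjusted p = 0.0509) in yolk sac CD45- cells, with both Tie-2-Etv2 arrays above both controls, as in 45.6% of all genes. It differed by -1.03 ± 0.46 (adjusted p = 0.117) in yolk sac CD45+ cells, with both below, as in 30.6% of all genes.

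The transcription factors of the response, Irf7, Irf9 and Stat2, all fell in both yolk sac populations and passed in neither embryo population. Irf7, which amplifies type I interferon production, was at -3.72 and -5.0 against -4.73 and -4.53 in CD45- and 0.79 and 0.17 against -0.97 and -0.55 in CD45+ cells of the embryo. Irf7 in the yolk sac was at -0.88 and -0.49 against -3.55 and -2.87 in CD45- cells and 2.80 and 1.52 against -1.23 and -1.48 in CD45+ cells. Irf7 fell by 2.52 ± 0.49 (adjusted p = 0.00221) and by 3.51 ± 0.49 (adjusted p = 0.000389), with the highest Tie-2-Etv2 array below the lowest control array in both gates, as in 29.9% and 30.6% of all genes. Irf9, the DNA-binding part of the ISRE complex, was at 2.36 and 2.12 against 1.75 and 1.73 in CD45- and 3.98 and 3.48 against 2.79 and 2.74 in CD45+ cells of the embryo. Irf9 in the yolk sac was at 2.97 and 3.04 against 1.38 and 1.96 in CD45- cells and 4.27 and 3.83 against 1.76 and 1.94 in CD45+ cells. The falls of Irf9 were 1.33 ± 0.24 (adjusted p = 0.0014) and 2.2 ± 0.24 (adjusted p = 9.6e-05). Stat2, which joins Irf9 in this complex, was at 1.13 and 1.60 against 0.97 and 1.19 in embryo CD45- cells, where the genotypes overlapped, and 2.47 and 1.85 against 0.76 and 1.12 in embryo CD45+ cells. Stat2 in the yolk sac was at 1.76 and 2.00 against 0.37 and 0.76 in CD45- cells and 3.25 and 2.54 against 0.23 and 0.53 in CD45+ cells. Stat2 fell by 1.32 ± 0.30 (adjusted p = 0.00558) and by 2.51 ± 0.30 (adjusted p = 0.000176), the first call being lost without Tie-2-Etv2 array 1 (adjusted p = 0.0514). In embryo CD45+ cells Irf9 and Stat2 gave -0.96 ± 0.24 (adjusted p = 0.0617) and -1.22 ± 0.30 (adjusted p = 0.0609), and neither passed. Both Tie-2-Etv2 arrays lay below both controls for both genes, as they did in 23.6% of all genes there.

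**Figure D4:**
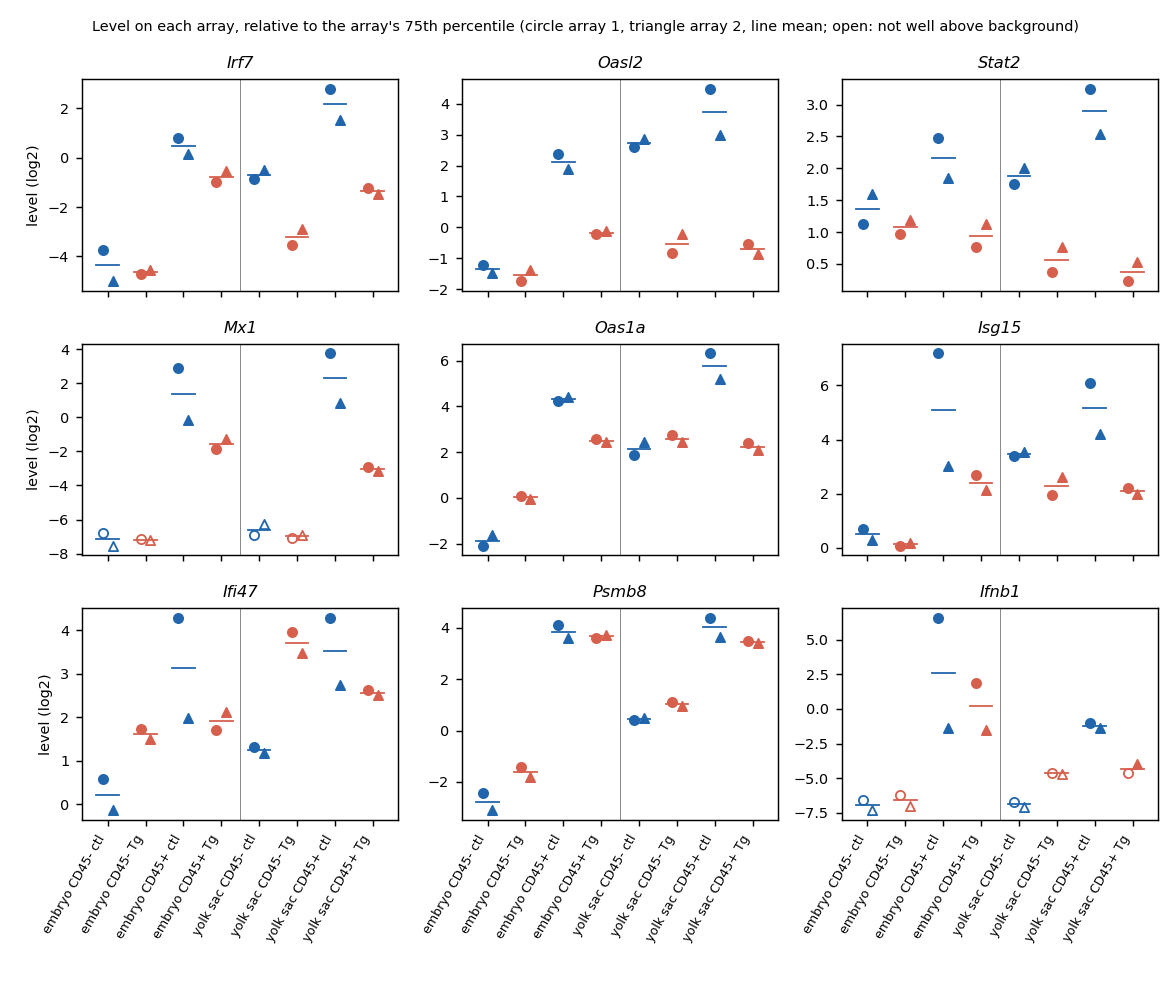
Level on each array (log2 relative to the array's 75th percentile) of 8 interferon-induced genes and of Ifnb1, with a circle for array 1, a triangle for array 2 and a line at the mean. Blue is control (ctl), red is Tie-2-Etv2 (Tg), and open symbols were not well above background. Irf7, Oasl2 and Stat2 are lower in both yolk sac gates, Mx1, Oas1a and Isg15 in yolk sac CD45+ cells, Ifi47 is higher in yolk sac CD45- cells, and Psmb8 passed in no Tie-2-Etv2 comparison.

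Isg15 is a ubiquitin-like tag, Usp18 removes it, Trim25 is a ubiquitin ligase that activates RIG-I, and Parp9, Parp14 and Dtx3l are an ADP-ribosylation group of which Parp9 and Dtx3l form a complex. In yolk sac CD45+ cells 5 of these 6 fell, and in yolk sac CD45- cells 2, where 14.5% and 15.8% of all genes fell. Isg15 was at 0.70 and 0.30 against 0.07 and 0.19 in CD45- and 7.19 and 3.01 against 2.68 and 2.13 in CD45+ cells of the embryo. Isg15 in the yolk sac was at 3.39 and 3.53 against 1.93 and 2.60 in CD45- cells and 6.08 and 4.22 against 2.21 and 1.97 in CD45+ cells. Control CD45+ array 1 was the highest Isg15 array of each tissue. Isg15 fell by 3.06 ± 1.04 (adjusted p = 0.0454) in yolk sac CD45+ cells, a call lost without control array 1 or either Tie-2-Etv2 array (adjusted p up to 0.245), and its other probe gave -3.20 ± 1.12 (adjusted p = 0.0528). Parp9 was at 0.08 and 0.31 against -0.10 and 0.26 in CD45- and 2.98 and 2.42 against 1.59 and 1.58 in CD45+ cells of the embryo. Parp9 in the yolk sac was at 1.37 and 1.40 against 0.45 and 0.69 in CD45- cells and 3.30 and 2.52 against 1.01 and 1.24 in CD45+ cells. Parp9 fell by 0.82 ± 0.27 (adjusted p = 0.0342) and 1.78 ± 0.27 (adjusted p = 0.000687), the smaller of them lost in each of the 4 leave-one-out fits (adjusted p up to 0.166). Parp14 was at 0.32 and -0.43 against -0.49 and -0.74 in CD45- and 4.96 and 3.80 against 2.61 and 2.37 in CD45+ cells of the embryo. Parp14 in the yolk sac was at 1.77 and 1.87 against -0.11 and 0.89 in CD45- cells and 4.46 and 4.11 against 1.06 and 1.37 in CD45+ cells. Parp14 was lower on both Tie-2-Etv2 arrays of each population, as were 18.1% to 30.6% of all genes, depending on the population. It fell by 1.89 ± 0.42 (adjusted p = 0.0384) in embryo CD45+ cells and, in the yolk sac, by 1.43 ± 0.42 (adjusted p = 0.019) in CD45- and 3.07 ± 0.42 (adjusted p = 0.00035) in CD45+ cells. Its embryo call was lost in 8 of 17 alternatives (adjusted p up to 0.259) and its yolk sac CD45- call in 3 of 16.

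Dtx3l was at 0.06 and 0.46 against 0.39 and 0.45 in CD45- and 2.80 and 2.08 against 1.65 and 1.49 in CD45+ cells of the embryo. Dtx3l in the yolk sac was at 0.96 and 0.82 against 1.25 and 1.13 in CD45- cells and 3.09 and 2.15 against 1.41 and 1.81 in CD45+ cells. Dtx3l fell in the latter by 1.01 ± 0.32 (adjusted p = 0.0331), a call lost in 8 of 17 alternatives (adjusted p up to 0.24). Trim25 was at 5.64 and 5.13 against 5.40 and 5.21 in CD45- and 7.75 and 7.66 against 6.85 and 6.23 in CD45+ cells of the embryo. Trim25 in the yolk sac was at 5.06 and 5.33 against 5.14 and 5.40 in CD45- cells and 8.55 and 7.62 against 5.62 and 5.49 in CD45+ cells. The fall of Trim25 in yolk sac CD45+ cells was 2.52 ± 0.31 (adjusted p = 0.000208) on its brighter probe and did not pass on its other probe, at -0.69 ± 0.29 (adjusted p = 0.0979). The ends of both 60-base probes are printed because they differ in kind, with capitals for a run of 15 GT repeats that closes the brighter one.
Trim25, brighter probe, last 30 bases: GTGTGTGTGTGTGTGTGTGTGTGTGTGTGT
Trim25, other probe, last 30 bases: tctttatttgactgcttctgattctttttc
What a run of this kind adds to the signal was not tested. Usp18 differed by -1.76 ± 0.62 (adjusted p = 0.0522) in yolk sac CD45+ cells and passed in no Tie-2-Etv2 comparison.

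The GTPases of the response, guanylate-binding proteins and immunity-related GTPases, attack the membranes around intracellular pathogens. Only Gbp2 and Igtp of the 6 fell in yolk sac CD45+ cells, and Ifi47 was the single member to rise in yolk sac CD45- cells. Of all genes 14.5% fell in the former cells and 26.1% rose in the latter. Gbp2 was at 0.19 and -3.11 against -2.76 and -3.23 in embryo CD45- cells, with control array 1 far above the other 3, and 4.68 and 1.28 against 0.70 and -0.30 in embryo CD45+ cells. Gbp2 in the yolk sac was at 0.17 and 0.52 against -1.28 and -2.01 in CD45- cells and 3.15 and 1.70 against -0.77 and -1.10 in CD45+ cells. Gbp2 fell there by 3.36 ± 1.14 (adjusted p = 0.0453), a call lost in all 4 leave-one-out fits (adjusted p up to 0.209). Igtp was at -0.39 and -1.15 against -0.90 and -0.92 in CD45- and 4.29 and 2.46 against 1.55 and 1.53 in CD45+ cells of the embryo. Igtp in the yolk sac was at 0.78 and 0.95 against 0.98 and 1.01 in CD45- cells and 3.87 and 2.92 against 0.51 and 0.86 in CD45+ cells, where it fell by 2.71 ± 0.51 (adjusted p = 0.00229). Igtp held its call under every alternative. Ifi47 was at 0.57 and -0.14 against 1.72 and 1.51 in CD45- and 4.28 and 1.99 against 1.70 and 2.12 in CD45+ cells of the embryo. Ifi47 in the yolk sac was at 1.32 and 1.17 against 3.95 and 3.47 in CD45- cells and 4.28 and 2.74 against 2.62 and 2.51 in CD45+ cells. Ifi47 rose by 2.47 ± 0.66 (adjusted p = 0.0123) in yolk sac CD45- cells, with both Tie-2-Etv2 arrays above both controls, as in 45.6% of all genes. The call was lost without control array 2 or Tie-2-Etv2 array 1. Iigp1 differed in the same direction there on its brighter probe, by 1.36 ± 0.56 (adjusted p = 0.076), and did not pass. Its other probe had the opposite sign, at -2.59 ± 1.39 (adjusted p = 0.167). Irgm1 and Gbp3 differed by -2.18 ± 0.83 (adjusted p = 0.0679) and -1.96 ± 0.71 (adjusted p = 0.0569) in yolk sac CD45+ cells, and the other Irgm1 probe passed there at -2.44 ± 0.80 (adjusted p = 0.0419).

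Of the 3 antigen processing genes 1 fell in yolk sac CD45+ cells, where 14.5% of all genes did. In the other Tie-2-Etv2 comparisons 0 passed. Tap1, part of the pump that carries peptides into the endoplasmic reticulum, was at -3.00 and -4.19 against -3.76 and -3.34 in CD45- and 2.01 and 0.45 against 0.28 and 0.03 in CD45+ cells of the embryo. Tap1 in the yolk sac was at -2.15 and -1.36 against -1.72 and -1.60 in CD45- cells and 1.67 and 0.88 against -0.24 and -0.27 in CD45+ cells, where it fell by 1.53 ± 0.53 (adjusted p = 0.047). This call was lost in 6 of 17 alternatives (adjusted p up to 0.231). Psmb9, a catalytic subunit of the immunoproteasome, was at -1.11 and -3.05 against -2.19 and 1.21 in CD45- and 3.75 and 3.32 against 3.05 and 3.01 in CD45+ cells of the embryo. Psmb9 in the yolk sac was at -1.0 and -1.08 against 0.32 and -0.06 in CD45- cells and 4.33 and 3.48 against 2.51 and 2.50 in CD45+ cells. Psmb9 and Psmb8, its fellow subunit, passed in no Tie-2-Etv2 comparison, with Psmb8 at 0.59 ± 0.29 (adjusted p = 0.127) in yolk sac CD45- and -0.57 ± 0.29 (adjusted p = 0.159) in yolk sac CD45+ cells.

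Of the remaining 5 genes, 4 fell in yolk sac CD45+ cells and 3 in yolk sac CD45- cells, where 14.5% and 15.8% of all genes fell. Rtp4, a chaperone of membrane receptors, was at 1.22 and -0.42 against -0.58 and -1.25 in CD45- and 5.82 and 4.12 against 2.34 and 2.47 in CD45+ cells of the embryo. Rtp4 in the yolk sac was at 2.86 and 2.99 against -0.76 and 0.29 in CD45- cells and 6.38 and 4.76 against 0.85 and 1.02 in CD45+ cells. Tie-2-Etv2 arrays were the lower ones in each population, as in 18.1% to 30.6% of all genes, depending on the population. Rtp4 fell by 3.16 ± 0.70 (adjusted p = 0.00476) and 4.64 ± 0.70 (adjusted p = 0.000647) in the yolk sac. Xaf1, which favours apoptosis, was at -0.79 and -0.82 against -1.54 and -1.24 in CD45- and 2.01 and 1.42 against 0.05 and -0.10 in CD45+ cells of the embryo. Xaf1 in the yolk sac was at 1.79 and 1.80 against -1.77 and -0.70 in CD45- cells and 3.46 and 1.99 against -1.36 and -1.08 in CD45+ cells. Xaf1 fell by 3.03 ± 0.45 (adjusted p = 0.00046) and 3.95 ± 0.45 (adjusted p = 0.00013), and both calls held under every alternative. Ifi44 was dim in the embryo, at background on all CD45+ arrays and at -5.62 and -4.31 against -5.71 and -4.72 in CD45- cells. Ifi44 in the yolk sac was at -1.45 and -0.77 against -4.64 and -3.77 in CD45- cells and -2.04 and -3.43 against -5.73 and -4.46 in CD45+ cells. It fell by 3.1 ± 0.67 (adjusted p = 0.00426) and 2.36 ± 0.67 (adjusted p = 0.0213), the second call being lost without control array 1 or Tie-2-Etv2 array 1 (adjusted p up to 0.161). Ifi35 was at 0.33 and 0.64 against 0.57 and 0.55 in CD45- and 2.73 and 2.39 against 2.10 and 2.22 in CD45+ cells of the embryo. Ifi35 in the yolk sac was at 2.16 and 2.26 against 1.68 and 1.69 in CD45- cells and 3.61 and 2.76 against 2.24 and 2.22 in CD45+ cells, a fall of 0.95 ± 0.25 (adjusted p = 0.0136) in the latter that was lost without control array 1 or either Tie-2-Etv2 array (adjusted p up to 0.0878). Cxcl10, a chemokine for T cells and natural killer cells, was at 3.59 and -0.23 against 2.34 and 0.03 in CD45- and 9.31 and 5.92 against 7.24 and 5.83 in CD45+ cells of the embryo. Cxcl10 in the yolk sac was at 2.65 and 2.24 against 3.40 and 3.73 in CD45- cells and 5.90 and 5.37 against 5.02 and 5.47 in CD45+ cells, with overlap in the latter. Cxcl10 passed in no Tie-2-Etv2 comparison.

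The comparison of gates asks how these genes differ between CD45+ and CD45- cells of the same tissue. In control embryos 37 of 42 genes were higher in CD45+ cells and 0 lower, where 20% of all genes were higher and 16.6% lower, and the median difference was 4.09 against 0.08. In control yolk sacs 29 were higher and 0 lower, where 22.7% of all genes were higher and 15.8% lower, with a median of 2.41 against 0.20. Without the 2 control CD45+ arrays numbered 1 the embryo count was 33 with a median of 2.67, and in the yolk sac 25 were higher and 1 lower with a median of 1.79. The yolk sac count was 19 without CD45- control array 1. All 5 tested synthetases, all 3 sensors, all 6 ubiquitin-like and ADP-ribosyl genes and all 3 antigen processing genes were higher in control embryo CD45+ cells. Of the 37 calls in the embryo 25 held under every alternative that tested the gene, and of the 29 in the yolk sac 16. The strict filter did not test Mx1 and Oas2, found in both sets, nor Ifit3, found among the 25. Among the synthetases and sensors of the embryo Oas3 was lost in 10 of 15 alternatives, Oasl1 in 6 of 16 and Ddx58 in 3 of 16. The other probes of Ddx58 (0.50 ± 0.44, adjusted p = 0.434) and Trim25 (0.81 ± 0.29, adjusted p = 0.0511) did not pass there. Oas2 differed by 8.19 ± 0.66 (adjusted p = 4.87e-06) in the embryo and 7.77 ± 0.66 (adjusted p = 6.7e-06) in the yolk sac, and Mx1, at background in CD45- cells, by at least 78.5-fold (adjusted p = 5.83e-05) and at least 145-fold (adjusted p = 3.96e-05). Mx1 entered the test only through CD45+ groups, so the filter favoured a higher level in CD45+ cells in each gate comparison. By the mean over both tissues, Dhx58 (3.93), Irf7 (3.84), Parp14 (3.45), Igtp (3.33), Psmb9 (5.28) and Cxcl10 (4.56) differed most in their roles. Oasl2 and Bst2 gave 1.00 ± 0.41 (adjusted p = 0.0806) and 0.28 ± 0.34 (adjusted p = 0.559) in the yolk sac, and neither passed. Ifi44 differed by -1.63 ± 0.67 (adjusted p = 0.082) in the yolk sac and was at background on the embryo CD45+ arrays. All 11 macrophage and all 8 leukocyte markers were also higher and all 11 endothelial markers lower in control CD45+ cells of both tissues, and their part was not tested.

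In Tie-2-Etv2 animals fewer genes passed between the gates. In the embryo 26 of 42 genes were higher in CD45+ cells and 0 lower (16.4% and 13.9% of all genes, 30.3% in either direction), with a median of 1.89 against 0.10. Of these 26 calls 13 held under every alternative that tested the gene. The other probes of Ddx58, Dtx3l, Ifih1 and Trim25 did not pass there, while those of Cxcl10, Oas1a, Xaf1 and Zbp1 did. In the yolk sac 5 were higher and 0 lower (4.44% and 5.95% of all genes, 10.4% in either direction), with a median of 0.38 against 0.06. The 5 were Irf7, Mx1 (at least 3.54-fold), Oas2, Oas3 (at least 1.20-fold) and Psmb8. The filter favoured this direction for Mx1, which entered the test only through CD45+ groups. Oas2, at 4.10 ± 0.66 (adjusted p = 0.00239), and Psmb8, at 2.41 ± 0.29 (adjusted p = 0.000347), held their calls under every alternative that tested them. The strict filter left Oas2 out, so it was tested in 13 alternatives and Psmb8 in 14. Irf7 was lost in all 4 leave-one-out fits. Leukocyte markers were higher in CD45+ cells in 5 of 8 cases and endothelial markers lower in 8 of 11 in the Tie-2-Etv2 yolk sac.

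The change of the gate gap with genotype was tested directly as the Tie-2-Etv2 effect in CD45- cells minus that in CD45+ cells. In the yolk sac 11 of 42 genes passed, all positive, where 10.6% of all genes were higher and 7.85% lower, and the median was 1.60 against 0.15. The 11 were Dhx58, Eif2ak2, Ifi47, Ifih1, Igtp, Iigp1, Mx1, Oas1a, Oas2, Trim25 and Zbp1. For Mx1, at background on all 4 yolk sac CD45- arrays, the effect in CD45- cells was not measured, so 10 genes were measured in all 4 groups. Oas1a (3.95 ± 0.48, adjusted p = 0.000372), Dhx58 (2.35 ± 0.51, adjusted p = 0.00914) and Trim25 (2.60 ± 0.44, adjusted p = 0.00265) passed under every alternative. The other Trim25 probe, though, gave 0.85 ± 0.41 (adjusted p = 0.204). The other probes of Ifih1 and Iigp1 gave 1.97 ± 1.01 (adjusted p = 0.233) and 0.09 ± 1.97 (adjusted p = 0.983). The count was 18 without CD45+ control array 2 and between 3 and 5 without any other of the 8 arrays, with 3 genes without CD45+ control array 1. Without both CD45+ control arrays numbered 1 it was 10, all positive, with Ifit2 and Samd9l called and Eif2ak2, Iigp1 and Oas2 no longer, and the median was 0.90. In the embryo only Oas1a passed, at 3.71 ± 0.48 (adjusted p = 0.00354), where 0.574% of all genes were higher and 0.566% lower. It did so under every alternative, and the count was 9 without CD45+ control array 2. The embryo median was 1.34, and 0.66 without both CD45+ control arrays numbered 1.

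The comparison of tissues asks whether yolk sac cells differ from their embryo counterparts. In control CD45- cells 19 of 42 genes were higher in the yolk sac and 1 lower, where 5.44% of all genes were higher and 6.1% lower, with a median of 1.80 against -0.12. Usp18 (4.40 ± 0.62, adjusted p = 0.00211), Oasl2 (4.09 ± 0.41, adjusted p = 0.000296), Oas1a (4.01 ± 0.34, adjusted p = 0.000108), Ifi44 (3.86 ± 0.67, adjusted p = 0.00609) and Irf7 (3.67 ± 0.49, adjusted p = 0.00143) differed most among those called. Ifi44 entered the test only through yolk sac groups, the only ones with both arrays well above background. The filter thus favoured a higher level of Ifi44 in the yolk sac. The count was 10 without either yolk sac control array and 11 without embryo control array 2, and the calls of Bst2, Dhx58, Ifi35, Irf7, Oas1a, Oasl2, Psmb8, Usp18 and Xaf1 held throughout. Iigp1 was the one gene that was lower, at -2.07 ± 0.56 (adjusted p = 0.0396), and its other probe had the opposite sign, at 1.51 ± 1.39 (adjusted p = 0.547). In control CD45+ cells only Oas3 was higher (2.78 ± 0.51, adjusted p = 0.028) and 0 were lower, where 0.614% and 1.1% of all genes were. The call was lost without control array 1 of either tissue. Oas3 was tested only because both control yolk sac CD45+ arrays measured it well above background, so the filter favoured this direction. In Tie-2-Etv2 CD45- cells 10 were higher and 0 lower (18.1% and 12.5% of all genes), and in Tie-2-Etv2 CD45+ cells 0 were higher and Dhx58 (-1.27 ± 0.36, adjusted p = 0.0453) and Irf9 (-0.92 ± 0.24, adjusted p = 0.0333) lower (5.31% and 7.31% of all genes), both lost in each leave-one-out fit. All 5 endoderm markers were higher in the yolk sac in all 4 of these comparisons, with medians of 5.02 and 6.23 in control CD45- and CD45+ cells, and their part was not tested.

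Whether the Tie-2-Etv2 effect itself differed between the tissues was tested as yolk sac minus embryo. In CD45- cells Oasl2 (-3.07 ± 0.58, adjusted p = 0.0086) and Xaf1 (-2.45 ± 0.64, adjusted p = 0.0281) passed, both more negative in the yolk sac, and 0 were more positive, where 9.67% of all genes were higher and 6.41% lower. Oasl2 held under every alternative, while Xaf1 was lost in 9 of 17 and its other probe gave -0.87 ± 0.82 (adjusted p = 0.522). In CD45+ cells only Dhx58 passed, at -2.39 ± 0.51 (adjusted p = 0.0359), where 1.11% of all genes were higher and 2.05% lower. It was lost in 10 of 18 alternatives, and 9 genes passed without yolk sac control array 2. The control gate gap differed between tissues for Oas1a (-2.60 ± 0.48, adjusted p = 0.028) and Psmb8 (-3.06 ± 0.41, adjusted p = 0.00575), both smaller in the yolk sac, where 1.31% of all genes passed, 0.317% higher and 0.989% lower. Psmb8 held under every alternative, and the count was 7 without yolk sac CD45+ control array 1 and 6 without embryo CD45+ control array 2. Oas1a was lost in 6 of 18 alternatives, and its other probe gave -2.62 ± 0.58 (adjusted p = 0.0732). For the other genes the difference between tissues did not pass in these 3 tests.

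The gap between the 2 control CD45+ arrays was uneven over the genes. In the embryo it was widest for Ifit1 (6.34), Oasl1 (6.31) and Rsad2 (6.12), and in the yolk sac for Mx1 (2.90), Rsad2 (2.73) and Ifit3 (2.72). Ifit1 was at 4.06 and -2.28 on the embryo and 1.29 and -0.87 on the yolk sac control CD45+ arrays. Rsad2, an enzyme that makes a chain-terminating nucleotide, was at 5.42 and -0.71 and at 3.70 and 0.97, and Oasl1 at 6.60 and 0.29 and at 3.62 and 2.01. Oas2, Oas3, Eif2ak2, Oas1a and Dhx58 did not share the gap in the embryo, with gaps of -1.03, -0.84, -0.80, -0.18 and -0.02. The macrophage median was 6.99 and 6.55 on the embryo and 6.71 and 6.20 on the yolk sac arrays. Ifnb1, the gene of interferon beta, was at 6.58 and -1.35 on the embryo arrays and at -1.0 and -1.39 on the yolk sac arrays. Their part in the gap was not tested.

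**Figure D5:**
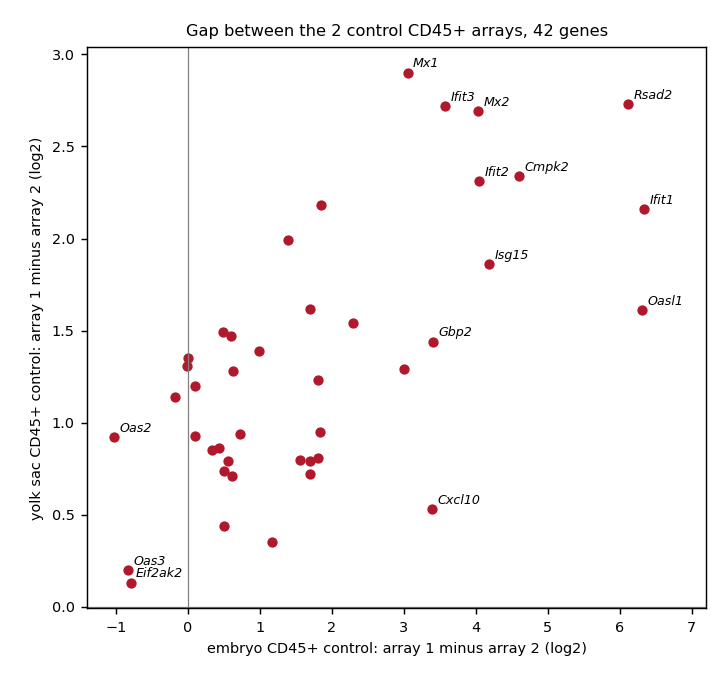
Gap between the 2 control CD45+ arrays (array 1 minus array 2, log2) for the 42 genes, with the embryo on the horizontal and the yolk sac on the vertical axis. All 42 points lie above 0 in the yolk sac and 37 lie right of 0 in the embryo, with Ifit1 (6.34), Oasl1 (6.31) and Rsad2 (6.12) farthest to the right.

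The rest of the pathway was described from a list of 49 genes, of which 44 were tested. Of the ligands 6 of 11 were tested, and with all 16 arrays Ifnb1 was the only one called in any gate comparison. The ligand results move with the CD45+ control arrays numbered 1. Without both, the median of the 6 between control yolk sac gates was 1.02 instead of 0.48. For Tie-2-Etv2 in yolk sac CD45+ cells it was -1.32 instead of -0.68. Ifnb1 was well above background on 7 of 16 arrays, all of them CD45+, so the filter favoured a higher level in CD45+ cells. In embryo CD45+ cells it was at 6.58 and -1.35 against 1.91 and -1.51, and in yolk sac CD45+ cells at -1.0 and -1.39 against -4.64 and -4.01, the first Tie-2-Etv2 array there being at background. Ifnb1 was higher in CD45+ than in CD45- cells at least 189-fold in control embryos (adjusted p = 0.00268), at least 36-fold in Tie-2-Etv2 embryos (adjusted p = 0.0219) and at least 12.8-fold in control yolk sacs (adjusted p = 0.0391). Without both CD45+ control arrays numbered 1 the control bounds were 12.1-fold in the embryo (adjusted p = 0.00504) and 11.2-fold in the yolk sac (adjusted p = 0.00508), and the yolk sac call was lost in each of the 4 leave-one-out fits. It passed in no Tie-2-Etv2 comparison, with -2.42 ± 1.93 (adjusted p = 0.64) in embryo and -3.13 ± 1.93 (adjusted p = 0.251) in yolk sac CD45+ cells. Of the 6 receptor genes 4 fell in yolk sac CD45- cells and 5 in yolk sac CD45+ cells, where 15.8% and 14.5% of all genes fell. Ifnar1, a chain of the type I receptor, was at 2.92 and 2.88 against 1.53 and 1.96 in yolk sac CD45- and 3.44 and 3.52 against 2.02 and 2.34 in yolk sac CD45+ cells, falls of 1.15 ± 0.20 (adjusted p = 0.00103) and 1.30 ± 0.20 (adjusted p = 0.000639). Its partner chain Ifnar2 fell by 1.39 ± 0.23 (adjusted p = 0.00123) in yolk sac CD45+ cells. The interferon gamma receptor chain Ifngr2 fell by 1.59 ± 0.22 (adjusted p = 0.000285) and 1.87 ± 0.22 (adjusted p = 0.000148), and Ifngr1 by 0.52 ± 0.19 (adjusted p = 0.0436) and 0.86 ± 0.19 (adjusted p = 0.00506). Il10rb, shared with the interferon lambda receptor, fell by 2.63 ± 0.28 (adjusted p = 7.97e-05) in yolk sac CD45+ cells.

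Among 11 kinases, STATs and IRFs, 4 rose and 0 fell in yolk sac CD45- cells and 3 rose and 4 fell in yolk sac CD45+ cells. Irf1 passed in no Tie-2-Etv2 comparison, with -1.43 ± 0.58 (adjusted p = 0.0731) in yolk sac CD45- cells. Irf5, a factor of myeloid cells, rose at least 22.9-fold in yolk sac CD45- cells (adjusted p = 7.51e-05). Of 12 sensors and adaptors 7 fell in yolk sac CD45+ cells, with Tlr3 at least 3.26-fold lower (adjusted p = 0.00289). Of 9 inhibitors 5 rose and 1 fell in yolk sac CD45- cells. Ptpn6, a phosphatase of blood cells, rose there by 4.01 ± 0.17 (adjusted p = 2.29e-07) and Nlrx1 by 3.49 ± 0.38 (adjusted p = 7.72e-05), and both also rose in embryo CD45- cells, by 2.13 ± 0.17 (adjusted p = 8.96e-05) and 2.63 ± 0.38 (adjusted p = 0.00488). Socs3, a feedback inhibitor, fell by 2.69 ± 0.44 (adjusted p = 0.00102) in yolk sac CD45+ cells. Over the whole pathway list of 44 tested genes 11 rose and 7 fell in yolk sac CD45- cells, shares near those of all genes (26.1% and 15.8%). Yolk sac CD45+ cells gave 6 higher and 19 lower, where 18.1% and 14.5% of all genes were, and without both control arrays numbered 1 it was 2 and 19, with 1 instead of 4 kinases, STATs and IRFs among those that fell. In the embryo 2 rose in CD45- cells and 0 passed in CD45+ cells, the latter also without these arrays.

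A further 56 tested genes of a list of 60 other interferon-induced genes were compared. In yolk sac CD45+ cells 28 fell and 2 rose, with a median of -1.07, where 14.5% of all genes fell and 18.1% rose, and without both control arrays numbered 1 it was 26 and 3, with a median of -0.86. Yolk sac CD45- cells gave 10 lower and 10 higher, with a median of -0.20, where 15.8% of all genes fell and 26.1% rose. Ifi27l2a fell by 4.88 ± 0.64 (adjusted p = 0.000272) in yolk sac CD45+ cells, where Slfn5 was at least 7.18-fold (adjusted p = 0.0063) and Ddx60 at least 4.10-fold lower (adjusted p = 4.1e-05). Ifi203, a DNA-sensing family member, rose by 5.31 ± 0.54 (adjusted p = 5.07e-05) in yolk sac CD45- cells, and Cd274, which encodes the checkpoint ligand PD-L1, by 3.37 ± 1.00 (adjusted p = 0.0201). In the embryo Lgals9 rose in CD45- cells by 1.45 ± 0.27 (adjusted p = 0.0256). Ifi27 (-1.35 ± 0.21, adjusted p = 0.00733), Gbp7 (-1.23 ± 0.18, adjusted p = 0.00491) and Oas1c (-1.13 ± 0.27, adjusted p = 0.0499) were the 3 lower in embryo CD45+ cells. The gates differed in 39 and 37 of these genes in control embryo and yolk sac, all higher in CD45+ cells, where 20% and 22.7% of all genes were higher, and in 35 and 29 without both control arrays numbered 1, with Ifi204 (9.85 ± 0.34, adjusted p = 1.14e-08) and Slfn2 (8.00 ± 0.55, adjusted p = 1.58e-06) at the top in the embryo.

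Of the members with a promoter window, 10 of 16 tested genes with an ISRE core match fell in yolk sac CD45+ cells, and so did 10 of 16 without one.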

How the data were processed

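RNA from sorted cells (Qiagen microelute kit, Agilent Low Input Quick Amp labelling with Cy3, per the labels' protocols) was hybridised to 1-colour Agilent arrays and scanned with Feature Extraction (10.7 per the submitters' processing notes, 10.7.3.1 per the file headers). The deposited intensity values are background-corrected processed signals on a linear scale, per the file headers. The authors' deposited table of log2 values, centred per tissue and gate, served as an alternative for the Tie-2-Etv2 comparisons. Within a tissue and gate its array differences correlated with those of the scanner values at 1, so it is no separate check. Here log2 intensities were set relative to each array's 75th percentile, 34119 probes that both arrays of some group measured well above background were kept, and the brightest probe stood for a gene. limma 3.58.1 (R 4.3.3, lmFit and eBayes, 8 residual degrees of freedom) was fitted to all 16 arrays and p-values were adjusted over 24574 genes. Where a group was not well above background, a fold is a lower bound: the mean of the bright group against, per array, the higher of the dim probe and the dimmest signal well above background. Members, gene lists and tests were chosen with earlier results of these data known. All members may be named, with values on every array for those called in a Tie-2-Etv2 comparison or differing most between gates in their role. Other genes are taken from the 3 that differed most per list and comparison, the receptors, Irf1, Ifnb1 and the gate and transgene checks, and not all that this rule names are reported here. Scripts were tested on simulated data. Alternatives covered scaling, background, filters, prior, probes, samples and the replicate block. The number of arrays limits the precision.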

Additional observations from a re-analysis of the deposited data

Results flagged for a closer look

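Differences between Tie-2-Etv2 effects, or between control gate gaps, that passed their own limma test are collected here with their SE and adjusted p. In the yolk sac the Tie-2-Etv2 effect in CD45- cells minus that in CD45+ cells passed for 11 genes, all positive and 10 of them measured in all 4 groups. Oas1a differed by 3.95 ± 0.48 (adjusted p = 0.000372), Trim25 by 2.60 ± 0.44 (adjusted p = 0.00265) and Dhx58 by 2.35 ± 0.51 (adjusted p = 0.00914), and these 3 passed under every alternative. The Trim25 value is from the probe that ends in GT repeats, and its other probe gave 0.85 ± 0.41 (adjusted p = 0.204). Another 7 lost their call under at least 1 alternative: Igtp at 2.83 (adjusted p = 0.0197), Oas2 at 3.67 (adjusted p = 0.0208), Ifi47 at 3.41 (adjusted p = 0.0278), Zbp1 at 3.64 (adjusted p = 0.0294), Ifih1 at 2.29 (adjusted p = 0.0346), Iigp1 at 2.57 (adjusted p = 0.0475) and Eif2ak2 at 1.56 (adjusted p = 0.0489). The other probes of Ifih1 and Iigp1 gave 1.97 ± 1.01 (adjusted p = 0.233) and 0.09 ± 1.97 (adjusted p = 0.983). Mx1 gave 4.95 (adjusted p = 0.0305), but it was at background on all 4 yolk sac CD45- arrays, so this is no measured difference of effects. In the embryo the same difference was 3.71 ± 0.48 for Oas1a (adjusted p = 0.00354).

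Between the tissues (yolk sac minus embryo), the Tie-2-Etv2 effect in CD45- cells differed by -3.07 ± 0.58 for Oasl2 (adjusted p = 0.0086) and by -2.45 ± 0.64 for Xaf1 (adjusted p = 0.0281). Xaf1 was lost in 9 of 17 alternatives, and its other probe gave -0.87 ± 0.82 (adjusted p = 0.522). In CD45+ cells the effect differed by -2.39 ± 0.51 for Dhx58 (adjusted p = 0.0359), lost in 10 of 18 alternatives. The control gate gap differed by -3.06 ± 0.41 for Psmb8 (adjusted p = 0.00575) and by -2.60 ± 0.48 for Oas1a (adjusted p = 0.028). Oas1a was lost in 6 of 18 alternatives, and its other probe gave -2.62 ± 0.58 (adjusted p = 0.0732). Tissue and slide cannot be told apart in these. Groups of 2 arrays were too small for a test of single outlying arrays.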

How the results depend on the processing

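Over the alternatives that keep every array, or leave out the control arrays numbered 1, 7191 of 7626 values of single members kept their side of the threshold. Another 186 lost a call, 249 gained one, and 0 values called in either fit changed sign. Sign changes of values called in neither fit were counted as kept. Among the values that kept their side were all 168 from the deposited table. Its array differences repeat those of the scanner values, so their agreement adds no separate support. Counts of members called moved by over 1.5 times as follows, beside the limma counts in the report. The cause was not tested. In embryo CD45- cells (1) the Tie-2-Etv2 count was 2 with quantile normalization, with scaling on detected probes and without the 4 control arrays numbered 1, and 0 with normexp background (4 at an unadjusted p under 0.05) or its own 4 arrays alone (6 unadjusted). In embryo CD45+ cells (3) it was 7 with quantile normalization, 11 with normexp, 6 with the strict filter, 8 with a trended robust prior and 0 with 4 arrays alone (17 unadjusted). In yolk sac CD45- cells (14) it was 29 with 4 arrays alone and 24 without the control arrays numbered 1. The Tie-2-Etv2 yolk sac gate count (5) was 3 with normexp, 2 with the strict filter and 9 with 4 arrays alone. Between tissues, control CD45- cells (20) gave 13 with no filter. Control CD45+ cells (1) gave 2 with normexp, 3 with the trended prior, and 0 with the strict filter (10 unadjusted), 4 arrays alone (6) or either removal of control arrays numbered 1 (11 each). Tie-2-Etv2 CD45+ cells (2) gave 5 with normexp, 4 with the trended prior, 7 with 4 arrays alone and 0 with no filter (6 unadjusted). The tissue difference of the effect in CD45- cells (2) gave 5 with quantile normalization, normexp, the strict filter and the trended prior, and 7 with detected probes or without control arrays numbered 1. In CD45+ cells (1) it gave 3 with quantile normalization, 2 with detected probes and the trended prior, 7 with normexp, and 0 with no filter (11 unadjusted) or without the CD45+ (19) or all (20) control arrays numbered 1. The tissue difference of the control gate gap (2) gave 1 with no filter and 6 without the CD45+ control arrays numbered 1.

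Leaving out 1 array at a time, the Tie-2-Etv2 counts ranged from 0 to 1 (embryo CD45-), 0 to 20 (embryo CD45+), 8 to 13 (yolk sac CD45-) and 20 to 29 (yolk sac CD45+). Gate counts ranged from 32 to 39 and 19 to 32 in control and from 15 to 18 and 2 to 3 in Tie-2-Etv2 embryo and yolk sac. Tissue counts ranged from 10 to 14 and 0 to 10 in control and from 5 to 6 and 0 to 0 in Tie-2-Etv2 CD45- and CD45+ cells. Differences of effects ranged from 1 to 9 (gates, embryo), 3 to 18 (gates, yolk sac), 1 to 2 (tissues, CD45-), 0 to 9 (tissues, CD45+) and 1 to 7 (tissues, control gate gap). The difference of the Etv2 transcript's own response between yolk sac gates ranged from -1.77 to 2.34 and reversed at -1.77 (adjusted p = 0.041), without CD45+ control array 2, whose partner was not well above background.

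The labels do not say that replicate numbers pair the samples. Deviations of same-numbered arrays correlated at -0.014 to 0.39 over all genes, above 0.1 in 5 of 12 comparisons, among them the gates of control embryos (0.39), Tie-2-Etv2 embryos (0.22) and Tie-2-Etv2 yolk sacs (0.37), and 2 pairs per comparison do not settle it. With the replicate block the counts were 2, 3, 14 and 31 for Tie-2-Etv2 in embryo CD45-, embryo CD45+, yolk sac CD45- and yolk sac CD45+ cells, 37, 30, 27 and 5 for gates, 20, 1, 9 and 2 for tissues and 1, 12, 3, 1 and 2 for the differences of effects, in the order above.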
